A study of Mus musculus with 12 samples.

Results

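Genes of regulated secretion are described here across a conversion of mouse fibroblasts toward motor neurons. They encode granins (Scg2, Scg3, Chga, Chgb and Vgf), SNAREs of the plasma membrane (Snap25 and Stx1a), synaptotagmins (Syt1 and Syt4) and a glycoprotein of synaptic vesicles (Sv2b). They are 10 of the 23077 genes in the deposited table, and all 10 passed the filter on low values. The 10 were chosen by symbol, with results of these same libraries already known, and which comparison drew attention to each gene is not recorded. Their values, changes and calls are therefore given as a description, with no p-value, and nothing is read from how many of them were called.

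Neurons and endocrine cells store their products in vesicles and release them on a calcium signal. Granins are acidic secretory proteins that are packed into dense-core vesicles, the carriers of neuropeptides and hormones. SNAP-25 and syntaxin-1A sit on the plasma membrane and pair with a vesicle SNARE of the VAMP family to drive fusion. Synaptotagmin-1 is the calcium sensor that triggers this fusion, and SV2 proteins are glycoproteins carried by synaptic vesicles. Several of these genes are known to be silenced outside neurons by REST, a repressor that binds their regulatory DNA.

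All groups were embryonic fibroblasts of mice carrying Hb9::GFP, a transgene that reports the motor neuron gene Mnx1, and all were infected with retrovirus carrying NIL, the factors Ngn2, Isl1 and Lhx3 joined by 2A peptides. The group named NIL (3 libraries) received only this virus. SDD (3 libraries) also received a SNAP-tagged p53DD, a dominant-negative fragment of p53. SDDIR (2 libraries) and RISDD (3 libraries) received that fusion together with HRAS(G12V), a constitutively active HRAS, on 1 transcript, with an internal ribosome entry site (IRES) between them. HRAS(G12V) lies after the IRES in SDDIR and before it in RISDD. Cells were collected on day 4, after a change on day 3 to N3 medium with BDNF, GDNF, CNTF and FGF. RepSox, which blocks the TGF-beta type I receptor, was given to every group except NIL, and those groups were sorted for the SNAP tag, whereas NIL was sorted as live single cells with no tag. In SDD against NIL, the p53DD virus, RepSox and the sort therefore cannot be told apart. The labels do not say whether replicates came from separate cultures, so errors measure only the spread between these samples.

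Values are normalised counts, that is, gene counts divided by a constant of the library, and the reads behind them ranged from 14872639 to 29815073 per library. They hold no length correction, so each gene is compared only with itself. Changes are differences of log2(value + 1) in a limma fit of all 4 groups, with their standard error (SE), and folds are on that scale. The added 1 shrinks changes of low genes. A library near 0, such as NIL C for Snap25, can instead raise a fold above the ratio of group means. A gene is called when its Benjamini-Hochberg adjusted p over the 14207 genes tested is under 0.05. NIL C stood apart: mitochondrial genes held 0.537% of its counts, against 2.60% to 4.04% in the other 10 libraries, and calls of the 10 genes that change when it is left out are given both ways. In sorted populations such as these, fewer cells of a type and less RNA per cell cannot be told apart.

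Markers of the starting cells and of other lineages differed in level between the groups. The summed level of 8 fibroblast markers ranged from 735283 to 1069880 in NIL and 551115 to 684035 in SDD, against 158751 to 164192 in SDDIR and 86175 to 88835 in RISDD. All 8 had a mean of at least 10 in each group. The sum of 10 neuron markers ranged from 2866 to 5525 in NIL and 7762 to 14868 in SDD, and from 6086 to 6370 in SDDIR and 13541 to 14950 in RISDD. The neurofilament genes Nefl (mean 8956) and Nefm (mean 3884) made up most of the RISDD sum. In RISDD against SDD, Dcx (86.6-fold), Ina (8.37-fold), Elavl3 (6.96-fold), Tubb3 (4.72-fold) and Map2 (1.64-fold) were called lower, Nefl, Nefm and Stmn2 higher, and Elavl4 was not called. For 7 motor neuron markers the sum was 473 to 528, 969 to 1820, 274 to 335 and 817 to 994 in NIL, SDD, SDDIR and RISDD. Most of the RISDD sum was the choline transporter gene Slc5a7 (mean 867), while Prph was 59.3-fold, Mnx1 13.4-fold and Isl2 5.35-fold lower in RISDD than in SDD, all called. Chat, the enzyme that makes acetylcholine, was at 0 in all 11 libraries. Because granins also mark chromaffin and sympathetic cells, 6 markers of those cells were summed: 64.1 to 144 in NIL and 391 to 755 in SDD, then 393 to 830 for SDDIR and 119 to 367 for RISDD. Most of that sum was the nicotinic receptor gene Chrna3. Th, which makes the precursor of catecholamines, was at 0 in every library, and Dbh was at 0 in all but NIL A. Sums of 5 epithelial markers were at most 114 in NIL and 25.1 in SDD, 2389 to 3719 in SDDIR and 8467 to 12615 in RISDD. Most of the SDDIR and RISDD sums was the keratin genes Krt8 and Krt18. Epcam had a mean of 7.03 in SDDIR and 58.5 in RISDD, and Cdh1 2.37 and 195. Sums of 6 macrophage markers were 812 to 3709 in NIL, against 222 to 828 over the other groups, but the markers went different ways. Most of the RISDD sum was Cd68, with a mean of 621 against 280 in NIL, 2.39-fold higher and called. Adgre1, Csf1r and Cx3cr1 were called lower in RISDD than in NIL, and Ptprc was not called. Endothelial markers summed to 48.8 to 82.5 in NIL and 76.7 to 103 in SDD, against 160 to 168 for SDDIR and 496 to 601 for RISDD. Of these, Cdh5 (8.58-fold) and Pecam1 (5.82-fold) were called higher in RISDD than in SDD. Most of the SDDIR and RISDD sums was Cdh5 alone. Kdr was at 24.0 to 32.7 in SDD, 17.8 and 19.0 in SDDIR and 37.1 to 56.1 in RISDD. Skeletal muscle markers summed to at most 76.5 in any library, and Schwann cell and neural crest markers to 279 to 426 in NIL and at most 139 elsewhere. The part of these cell markers in the results that follow was not tested.

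**Figure D1:**
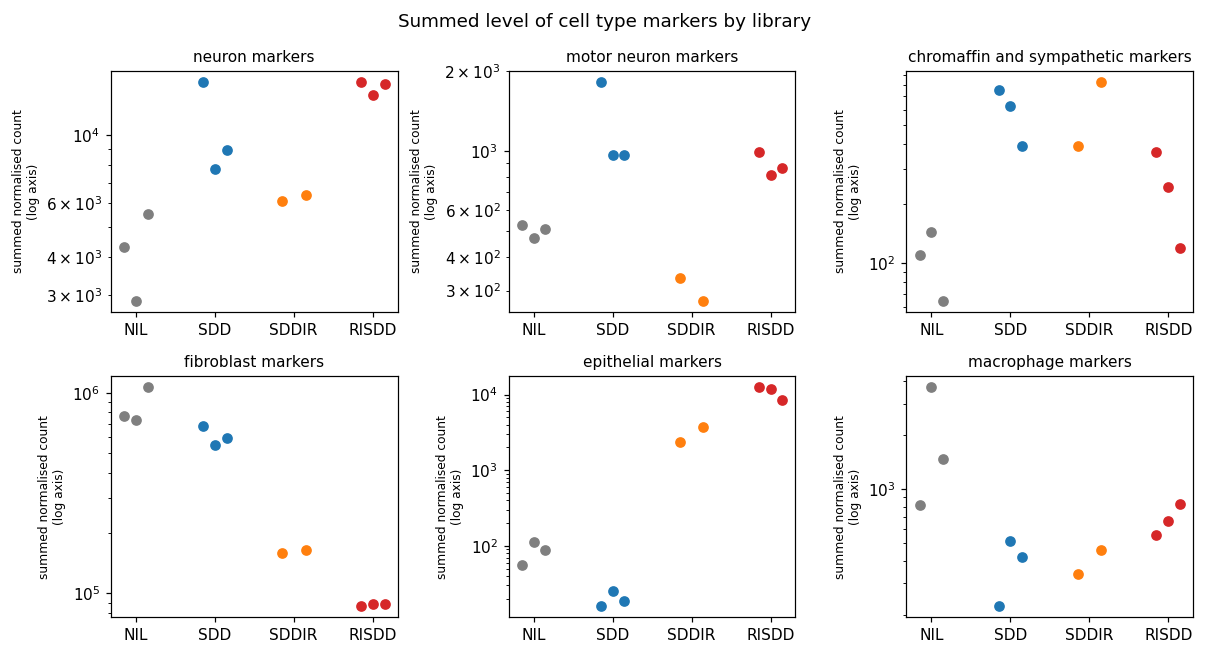
Summed normalised counts of marker genes of 6 cell types in each library, on log axes; each point is 1 library. Fibroblast sums were 551115 or more in the NIL and SDD libraries and 88835 or less in RISDD, while epithelial sums reached 8467 or more in RISDD.

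**Figure D2:**
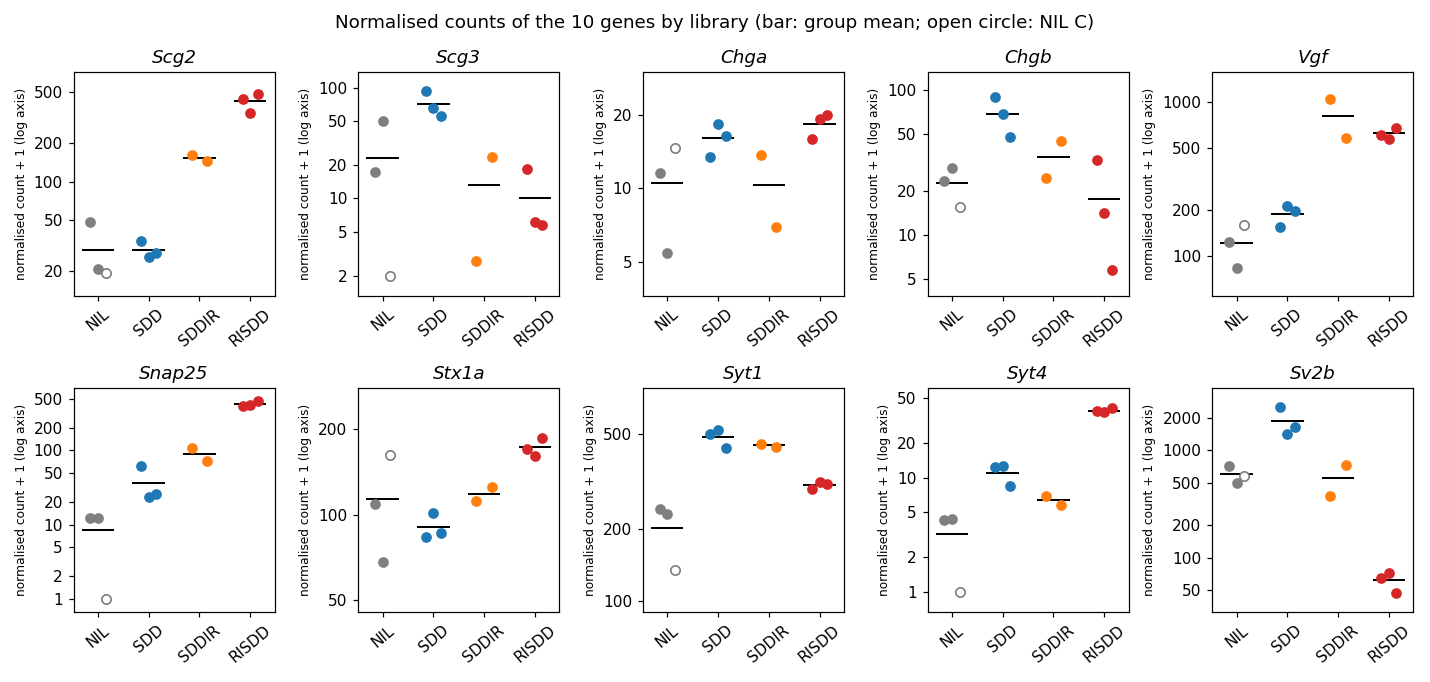
Normalised count plus 1 of each of the 10 genes in each library, on a log axis with a different range for each gene; bars are group means and the open circle is NIL C. Scg2, Snap25 and Syt4 were highest in the 3 RISDD libraries, Scg3, Chgb and Sv2b in the 3 SDD libraries, and Vgf in SDDIR A.

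The granins went different ways. Scg2 and Vgf were called higher in both HRAS groups than in SDD, Scg3 and Chgb had their highest values in SDD, and Chga was low throughout. Promoters of 4 granins are shown because Scg2 and Chgb, called in opposite directions in RISDD against SDD, hold the same element, the cyclic AMP response element TGACGTCA, which is known to be bound by factors of the CREB family. Sequences are from RefSeq on GRCm38.p6, a table that holds a promoter for 7 of the 10 genes, running from 250 bases before the annotated start to 50 after it. Vgf, Snap25 and Syt4 had no promoter there. Each stretch below is 100 bases read 5′ to 3′ on the strand of the gene and ends before the start, with the element or its core TGACG in capitals. They lie at chr1:79440041-79440140 on the minus strand for Scg2, chr2:132781524-132781623 on the plus strand for Chgb, chr9:75684057-75684156 on the minus strand for Scg3 and chr12:102554841-102554940 on the plus strand for Chga.
Scg2: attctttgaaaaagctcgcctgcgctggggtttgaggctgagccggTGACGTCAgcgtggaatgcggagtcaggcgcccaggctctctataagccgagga
Chgb: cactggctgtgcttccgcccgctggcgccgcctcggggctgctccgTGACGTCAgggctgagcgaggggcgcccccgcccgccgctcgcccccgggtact
Scg3: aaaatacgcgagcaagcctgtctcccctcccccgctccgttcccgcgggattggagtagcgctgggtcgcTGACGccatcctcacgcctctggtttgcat
Chga: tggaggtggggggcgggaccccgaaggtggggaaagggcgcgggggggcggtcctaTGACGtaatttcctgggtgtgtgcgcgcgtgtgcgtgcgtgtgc

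The full element begins 68 bases before the start in Scg2 and 72 bases before it in Chgb. It is a palindrome, so each match counts on both strands, and it contains the core TGACG on each strand. Chga carries the core 44 bases before its start and Scg3 30 bases before, without the full element, and Stx1a carries the core 144 bases before its start. Of the 32851 promoters of this length in the table, from 27025 genes, 1.79% hold the full element and 20.8% hold the core on either strand. Chgb also held a match to the EGR letters GCGNGGGCG on its reverse strand, 49 bases before its start, as do 5.55% of all promoters. Neither Syt1, with 2 promoters in the table, nor Sv2b, with 4, held the core. The AP-1 letters TGANTCA, found in 7.81% of all promoters, were in none of the 7 genes. Every motif was searched on both strands. The letters of the general E-box, CANNTG, are held by 72.3% of all promoters, and of the 7 genes only Scg3 had no match. The narrower E-box of the neurogenin type, CANATG, is contained in it and is held by 39.4%. It was matched in Syt1 and Sv2b, though not in each of their promoters, and in none of the other genes. A TATA box, TATAAA, is held by 13.6%, and was matched only in Chga and in some promoters of Sv2b.

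Scg2 encodes secretogranin II, a granin cleaved to the peptide secretoneurin. Its normalised counts were 47.2, 20.1 and 18.4 in NIL A, B and C, and 33.8, 25.1 and 27.0 in SDD. They were 162 and 145 in SDDIR and 445, 345 and 479 in RISDD. NIL and SDD overlapped, SDDIR lay above both, and RISDD lay above SDDIR with no overlap. Scg2 was higher in SDDIR than in SDD by 2.39 on the log2 scale (SE 0.37), and in RISDD by 3.83 (SE 0.33), which is 14.3-fold. RISDD against SDDIR gave 1.45 (SE 0.37), a call that was lost without SDD B or SDD C, and when either SDDIR library or any 1 of the RISDD libraries was left out. SDD against NIL was not called, at 0.12 with a 95% interval of −0.62 to 0.86.

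Vgf encodes a neurotrophin-inducible precursor of several secreted peptides. It had counts of 123, 82.5 and 158 in NIL and 154, 211 and 197 in SDD. In SDDIR it had 1040.0 and 583, and in RISDD 612, 576 and 681. All 5 HRAS libraries lay above all 6 libraries without HRAS, and SDDIR and RISDD overlapped. The change from SDD was 2.06 (SE 0.30) in SDDIR and 1.74 (SE 0.27) in RISDD, 4.18-fold and 3.33-fold higher, both called. RISDD against SDDIR was not called at −0.33, with an interval of −0.99 to 0.34. Unlike Scg2, then, Vgf had no higher mean in RISDD than in SDDIR, although the difference between the genes was not tested. In SDD against NIL the change was 0.66 (SE 0.27), not called, and 0.88 and called without NIL C.

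Scg3 encodes secretogranin III, which binds other granins and holds them at the membrane of the forming granule. Counts were 16.3, 49.0 and 0.971 in NIL and 92.5, 64.8 and 54.7 in SDD. Values were 1.69 and 22.5 in SDDIR and 17.3, 5.06 and 4.74 in RISDD. The 3 SDD libraries were above all 8 others, but libraries of the other groups differed widely: 1 read stood behind NIL C and 2 behind SDDIR A, against 44 in NIL B and 19 in SDDIR B. RISDD against SDD was −3.02 with an SE of 1.12, and SDDIR against SDD −3.14 with an SE of 1.25. Neither was called, and the first was called in 10 of 22 alternative settings and the second in 4. SDD against NIL was 2.55 (SE 1.12), not called, and was 1.25 without NIL C. Leaving out SDDIR A or B moved SDDIR against SDD to −1.57 or −4.70.

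Chgb encodes chromogranin B, a structural protein of dense-core granules. It showed 22.8, 27.9 and 14.6 in NIL and 87.9, 67.7 and 46.7 in SDD. The SDDIR libraries had 23.7 and 43.9, and those of RISDD 32.2, 13.1 and 4.74. SDD was above every library of the other groups, by a narrow margin over SDDIR B. Only RISDD against SDD was called, at −2.25 (SE 0.58) or 4.76-fold lower, and it ranged from −2.88 without RISDD A to −1.61 without RISDD C. The change of SDD against NIL was 1.59 (SE 0.58) and that of SDDIR against SDD −0.99 (SE 0.65), neither called, though the former was called in 4 alternatives.

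Chga encodes chromogranin A, the classical serum marker of neuroendocrine tumours. Its counts stayed between 4.46 and 19.0, from 4 to 25 reads: 10.6, 4.46 and 13.6 in NIL and 12.4, 17.4 and 15.4 in SDD. In SDDIR it had 12.7 and 5.93, and in RISDD 14.8, 18.2 and 19.0. It was not called in any of the 4 main comparisons, where changes ran from −0.71 (SE 0.52) in SDDIR against SDD to 0.91 (SE 0.52) in RISDD against SDDIR. At this depth the interval of RISDD against SDD, −0.82 to 1.22, spans both directions.

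Snap25, the neuronal SNARE that joins syntaxin and VAMP in the fusion complex, had 11.4, 11.1 and 0 in NIL and 59.8, 22.2 and 25.2 in SDD. It had 106 and 71.1 in SDDIR and 395, 409.6 and 459 in RISDD. The 4 groups did not overlap and followed the order NIL, SDD, SDDIR, RISDD. NIL C gave 0 reads, which allows up to 3 reads or a value of 2.91, counting error only. RISDD against SDD was called, 3.66 (SE 0.83) or 12.6-fold higher. SDDIR against SDD (1.40, SE 0.93), RISDD against SDDIR (2.26, SE 0.93) and SDD against NIL (2.65, SE 0.83) were not, although the last was called in 8 alternatives and RISDD against SDDIR in 6. Without NIL C, SDD against NIL was 1.44 (2.72-fold in place of 6.26-fold) and was called, and SDDIR against SDD was called too. Snap23, the related SNARE of non-neuronal cells, had means from 869 in NIL to 1421 in RISDD and was not called in any of the 4 comparisons with all libraries. Its changes of 0.36 in SDDIR and 0.49 in RISDD against SDD were called without NIL C (limma adjusted p 0.0053 and 0.00019) and in fits of only the groups compared.

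Stx1a, which encodes the syntaxin that pairs with SNAP-25, had smaller differences on the log2 scale. Counts were 108, 66.9 and 162 in NIL and 82.3, 101 and 84.8 in SDD. Values were 111 and 124 in SDDIR and 169, 161 and 186 in RISDD. NIL spanned the values of SDD and SDDIR, and SDD, SDDIR and RISDD did not overlap. RISDD against SDD was 0.94 (SE 0.28), 1.92-fold higher, and called, but not without SDD A, SDD C, RISDD A or RISDD C. SDDIR against SDD (0.40, SE 0.32), RISDD against SDDIR (0.54, SE 0.32) and SDD against NIL (−0.25, SE 0.28) were not called.

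Syt1, the calcium sensor of fast release, was higher in every group than in NIL. Its counts were 242, 231 and 134 in NIL and 499.5, 520.2 and 439 in SDD. The SDDIR libraries had 453 and 443, and those of RISDD 294, 316 and 309.8. SDD and SDDIR overlapped, and RISDD lay between them and NIL. SDD against NIL was 1.31 (SE 0.21) or 2.47-fold, a call held in all 22 alternatives, and 1.03 without NIL C. RISDD against SDD was −0.66 (SE 0.21), 1.58-fold lower, a call lost without SDD A, without SDD B and when any 1 of the RISDD libraries was left out. SDDIR against SDD was −0.11, with an interval of −0.63 to 0.40.

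Syt4, a synaptotagmin of dense-core vesicles that lacks fast calcium-triggered activity, reached a value of 10 in only 5 libraries. These were the 3 of RISDD and 2 of SDD. It thus passed the filter only through RISDD, the group where it is highest, and its calls there follow partly from that selection. It showed 3.26, 3.34 and 0 in NIL and 11.3, 11.6 and 7.37 in SDD. In SDDIR it had 5.93 and 4.74, and in RISDD 37.1, 36.4 and 39.5. The groups did not overlap, and the RISDD values rest on 30, 36 and 50 reads, against at most 12 in any other library. RISDD against SDDIR was 2.62 (SE 0.64), 6.13-fold higher, and RISDD against SDD 1.83 (SE 0.58), 3.55-fold higher, both called. Both calls were lost with a pseudocount of 0.5 and whenever 1 library of the groups compared was left out. SDD against NIL was 2.04 (SE 0.58) and called, but the call was lost in 9 alternatives, among them edgeR on the recovered reads and leaving out any SDD, SDDIR or RISDD library. It was 1.34 without NIL C and 0.72 with a pseudocount of 10.

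Sv2b, which encodes an SV2 protein of synaptic vesicles, was called higher in SDD than in NIL and lower in both HRAS groups than in SDD. Counts were 718, 494 and 578 in NIL and 2539, 1409.8 and 1648 in SDD. Values were 378 and 727 in SDDIR and 64.3, 70.8 and 45.8 in RISDD. SDD was above all other libraries, RISDD below all others, and SDDIR overlapped NIL. Sv2b was higher in SDD than in NIL by 1.61 (SE 0.30) or 3.06-fold. SDDIR against SDD was −1.78 (SE 0.33), 3.44-fold lower, RISDD against SDD −4.91 (SE 0.30), 30.0-fold lower, and RISDD against SDDIR −3.12 (SE 0.33), 8.70-fold lower. These 4 calls held in all 22 alternatives. Of its paralogs, Sv2a was not called in the 4 comparisons. Sv2c was lower than in SDD in SDDIR (−2.99, limma adjusted p 0.018) and in RISDD (−2.40, limma adjusted p 0.017). The first Sv2c call was lost without SDD A or SDDIR A and the second without SDD A or RISDD B.

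**Figure D3:**
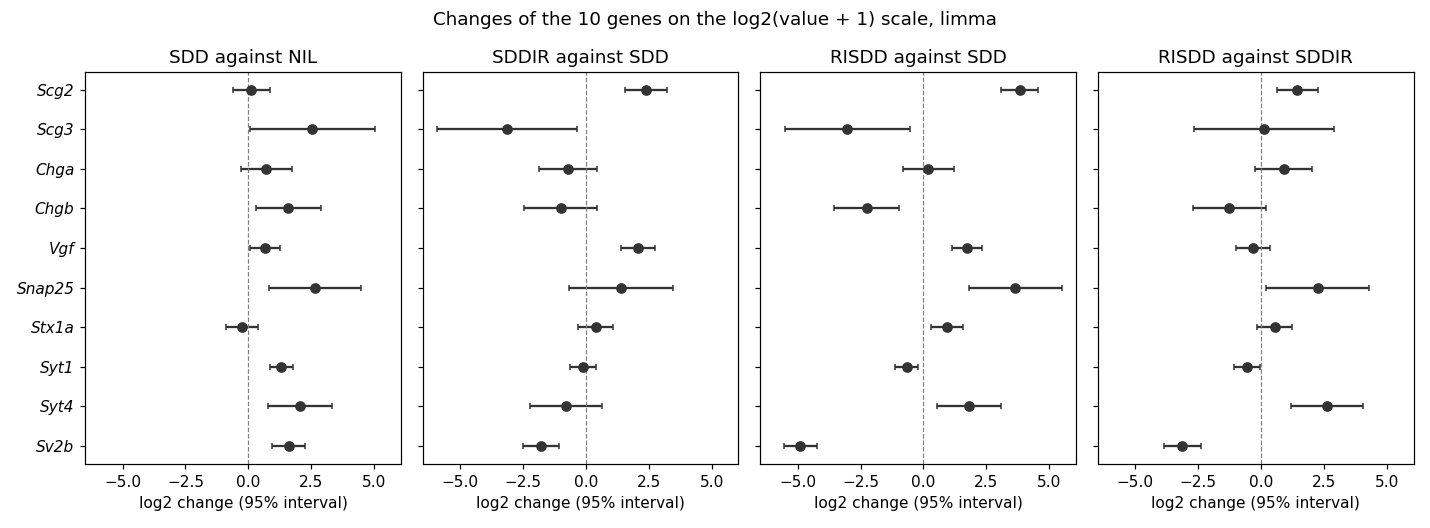
Log2 change of the 10 genes in the 4 comparisons, on the log2(value + 1) scale; points are limma estimates and bars their 95% intervals. In RISDD against SDD, Scg2 (3.83) and Snap25 (3.66) lie farthest to the right and Sv2b (−4.91) farthest to the left.

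Set side by side, SDD against NIL called 3 of the 10 genes higher (Syt1, Syt4 and Sv2b) and 0 lower, where 9.32% of all tested genes were called higher and 8.26% lower. The median log2 change was 1.45 over the 10 genes and 0.05 over all tested genes. Without NIL B the 10 genes had 5 calls, and without NIL C also 5, with Vgf and Snap25 added. Over all genes the 2498 calls became 2804 without NIL B, and 2159 higher and 1955 lower without NIL C. SDDIR against SDD called 2 higher (Scg2 and Vgf) and 1 lower (Sv2b), beside 8.66% and 13.9% of all genes, with medians of −0.41 and 0.01. Of all genes called there, 1230 of 3199 were higher, and with quantile scaling 1716 of 3494. Without NIL C that comparison had 3 higher and 2 lower, with Snap25 and Scg3 added. Over all genes 3053 were then called higher and 3283 lower.

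RISDD against SDD called 5 of the 10 higher (Scg2, Vgf, Snap25, Stx1a and Syt4) and 3 lower (Chgb, Syt1 and Sv2b), beside 20.0% and 22.6% of all genes, with medians of 0.57 and 0.02. Without SDD A, RISDD A or RISDD C the count was 5 in place of 8, and without NIL C it was 9, with Scg3 added as lower. Over all genes the 6046 calls became 4845, 4803 or 4753, and 8972 without NIL C. RISDD against SDDIR, which differ in the order of HRAS and p53DD around the IRES, called 2 higher (Scg2 and Syt4) and 1 lower (Sv2b), beside 4.64% and 5.05% of all genes, with medians of 0.33 and 0.01. Leaving out any 1 of the SDDIR or RISDD libraries left 1 call, and without NIL C there were 5, with Snap25 added as higher and Syt1 as lower. Over all genes the 1377 calls there became 308 to 692, and 4186 without NIL C. These comparisons share the SDD or SDDIR libraries, so their values are not independent.

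Against NIL itself, SDDIR called 4 genes higher (Scg2, Vgf, Snap25 and Syt1) and 0 lower, beside 15.3% and 18.2% of all genes. RISDD called 5 higher (the same 4 and Syt4) and 1 lower (Sv2b, 9.79-fold), beside 23.2% and 23.5%. Snap25 was 79.2-fold higher in RISDD than in NIL, and 34.3-fold without NIL C. The corresponding folds for Syt4 were 14.6 and 8.99. Without NIL C, Chga (2.29-fold) and Stx1a (2.01-fold) were also called higher in RISDD than in NIL. Over all genes 4285 were then called higher and 4131 lower, in place of 3294 and 3335.

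Around these 10 genes, 8 lists of related genes were examined, with none of the 10 in them; they too were written with earlier results known. Of 175 related genes in the table, 143 were tested. They had 20 genes called higher and 16 lower in SDD against NIL, 15 and 32 in SDDIR against SDD, 29 and 45 in RISDD against SDD, and 12 and 6 in RISDD against SDDIR. As shares of the 143 these are 14.0% higher and 11.2% lower, 10.5% and 22.4%, 20.3% and 31.5%, and 8.39% and 4.20%. The shares of all tested genes in the same order were 9.32% and 8.26%, 8.66% and 13.9%, 20.0% and 22.6%, and 4.64% and 5.05%. The 15 higher in SDDIR against SDD and the 29 higher in RISDD against SDD are near this background. So are the 6 lower in RISDD against SDDIR, and no count was tested against the background. The shares of all tested genes are also the background of the list counts that follow. Adjusted p-values below are from limma over all tested genes. Calls on related genes in SDD against NIL numbered 15, 20 and 14 when SDD A, B or C was left out, and 22 without RISDD B. In SDDIR against SDD the count of 47 became 25 without SDDIR A, 30 without SDDIR B and 77 without NIL C. For RISDD against SDDIR the count of 18 became 4 without SDDIR A, 9 without SDDIR B, 10 without RISDD B, 9 without RISDD C and 50 without NIL C. Calls over all tested genes moved the same way. In SDD against NIL 2498 became 1433, 1517 and 1226 without SDD A, B or C, and 1893 without RISDD B. In SDDIR against SDD 3199 became 1673 without SDDIR A, 1695 without SDDIR B and 6336 without NIL C. In RISDD against SDDIR 1377 became 308 without SDDIR A, 446 without SDDIR B and 4186 without NIL C. It became 571 without RISDD B and 652 without RISDD C.

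Genes of the active zone, the scaffold at which synaptic vesicles dock, had called genes only on the lower side in both HRAS groups against SDD. In SDDIR against SDD 0 of 15 were called higher and 11 lower (median −1.42, against 0.01 over all genes), and in RISDD against SDD 0 and 9 (median −1.39, against 0.02). The count of genes called higher was 0 and the median negative in both under upper-quartile and quantile scaling as well. Lin7a, a scaffold protein, had a mean of 972 in SDD, 161 in SDDIR and 138 in RISDD, 5.99-fold and 7.08-fold lower (adjusted p 1.6e-05 and 5.2e-07). In SDD against NIL 4 of 15 were higher and 1 lower, with Lin7a 2.62-fold higher (adjusted p 0.00061) and Pclo, which encodes the scaffold piccolo, 2.54-fold (adjusted p 0.011). The Pclo call was lost in a fit of only these 2 groups (adjusted p 0.054).

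Other synaptic vesicle proteins, 27 tested, had 3 higher and 5 lower in SDD against NIL, 2 and 8 in SDDIR against SDD, 6 and 11 in RISDD against SDD and 0 and 3 in RISDD against SDDIR. Synpr (synaptoporin) fell from a mean of 265 in SDD to 20.8 in SDDIR and 7.50 in RISDD, 12.1-fold and 33.5-fold lower (adjusted p 0.0021 and 3.6e-05). Rab3c, a vesicle GTPase, had a mean of 109 in SDD and 3.94 in RISDD, 23.0-fold lower (adjusted p 8.0e-05). Its log2 change ran from −4.85 to −3.08 over the alternatives, so the size of this fold depends on the setting. Amph, an endocytic adaptor, was 13.1-fold lower in RISDD than in SDD (adjusted p 1.1e-05). Syp, which encodes synaptophysin, had means of 38.8 in NIL and 138 in SDD, against 80.1 for SDDIR and 36.8 for RISDD. It was called higher in SDD than in NIL (adjusted p 0.044, lost in 9 alternatives, without NIL C among them) and lower in RISDD than in SDD (adjusted p 0.013, lost without RISDD C at 0.058).

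Neuronal SNAREs and their regulators, 15 tested, had 4 higher and 2 lower in SDDIR against SDD and 3 and 3 in RISDD against SDD. The counts in RISDD against SDD are 20% each, near the 20.0% and 22.6% of all tested genes. Doc2b, a calcium-binding priming protein, rose 8.02-fold in SDDIR and 13.9-fold in RISDD over SDD (adjusted p 0.00013 and 3.2e-06). Vamp1, a vesicle SNARE, was 5.39-fold higher in RISDD (adjusted p 0.00012). Its paralog Vamp2 was lower in both, by −0.64 in SDDIR (adjusted p 0.0061, lost without SDDIR A) and −0.60 in RISDD (adjusted p 0.0022). Of 25 widely expressed SNAREs and partners, 4 were higher and 3 lower in RISDD against SDD, led by Stxbp2, 3.42-fold higher (adjusted p 6.2e-05). As shares these are 16% and 12%, below those of all tested genes.

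Among 9 other synaptotagmins, 2 were higher and 3 lower in RISDD against SDD (22.2% and 33.3%, beside 20.0% and 22.6% of all tested genes). Syt7, a high-affinity calcium sensor, rose from a mean of 81.9 to 756, 9.16-fold (adjusted p 1.4e-05), while Syt11 was 1.90-fold lower (adjusted p 0.00059). In SDD against NIL, Syt13 was 4.03-fold lower (adjusted p 0.0020).

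Machinery of dense-core vesicles and prohormone processing, 19 tested, had 3 higher and 6 lower in SDDIR against SDD and 5 and 8 in RISDD against SDD. Pcsk2, a convertase that cleaves prohormones, had a mean of 144 in SDD, 7.45 in SDDIR and 7.32 in RISDD, 17.6-fold and 16.9-fold lower (adjusted p 0.00019 and 2.5e-05). The granule priming factors diverged in SDDIR against SDD: Cadps was 7.33-fold higher (adjusted p 0.00054) and Cadps2 12.8-fold lower (adjusted p 0.0018). Sytl4, an effector of Rab27 on granules, was 14.8-fold lower in RISDD than in SDD (adjusted p 2.5e-06). Cpe, the carboxypeptidase that trims prohormones, had means from 9001 to 10932 in the 4 groups and was not called. Scg5 and Pcsk1 did not pass the filter on low values.

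Neuropeptide cargo, 15 tested, had 7 higher and 1 lower in RISDD against SDD, and 6 higher and 0 lower in RISDD against SDDIR. Nppb, the precursor of a natriuretic peptide, rose from a mean of 3.10 in SDD to 447 in RISDD, 109.9-fold (adjusted p 9.6e-05). Calcb had means of 2.72 in SDD, 7.37 in SDDIR and 167 in RISDD, 56.8-fold higher in RISDD than in SDD. Its lowest RISDD value was 162, against highest values of 6.79 in NIL, 4.30 in SDD and 7.62 in SDDIR. It thus passed the filter on low values only through RISDD, the group where it is highest. Only 19 of the 22 alternatives could test it, so its fold is given as a description. Calcb is counted in the 7 and the 6 called higher, so these counts follow partly from that selection. Calca, its paralog and also a calcitonin gene-related peptide gene, fell 32.1-fold in RISDD against SDD (adjusted p 7.2e-05). Gal, the precursor of galanin, had a mean of 2156 in SDD and 62346 in SDDIR, 31.2-fold higher (adjusted p 4.1e-05). In SDD against NIL the list had 1 higher and 1 lower, the latter the enkephalin precursor Penk, 2.46-fold lower (adjusted p 0.0041).

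**Figure D4:**
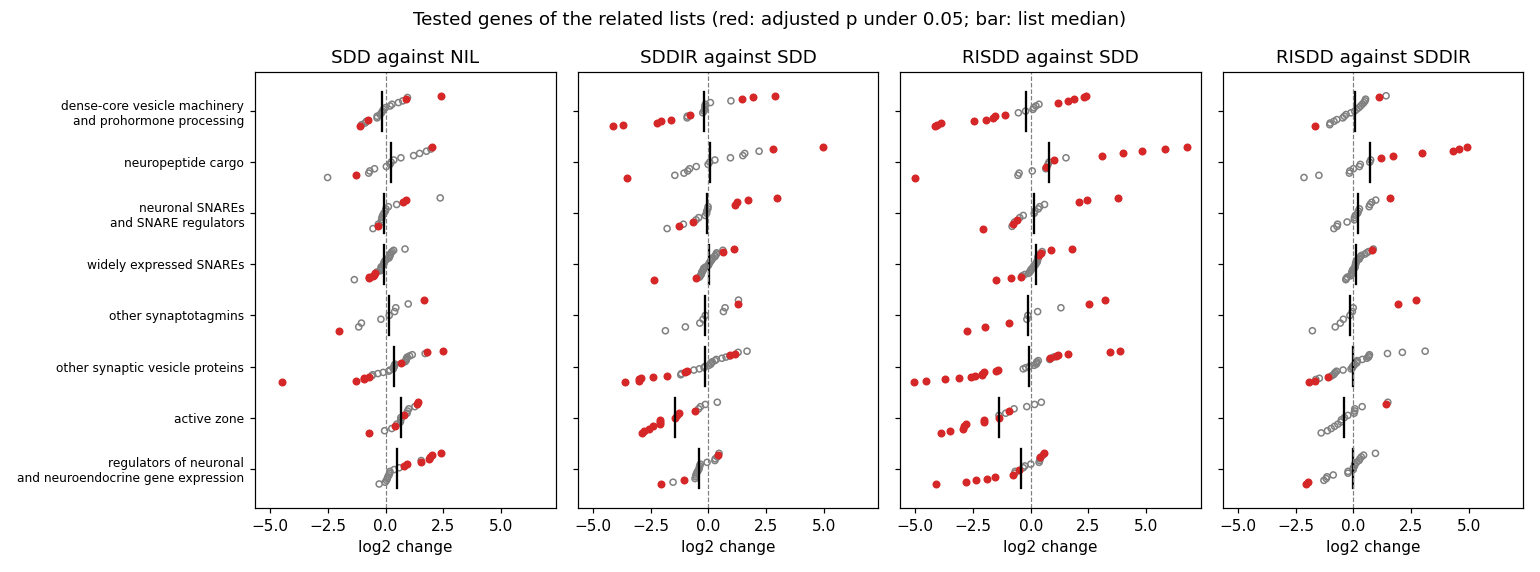
Log2 change of each tested gene of the 8 related lists in the 4 comparisons, on the log2(value + 1) scale; filled red points have a limma adjusted p under 0.05, open points do not, and bars are list medians. Active zone genes lie mostly left of 0 in SDDIR and RISDD against SDD, with medians of −1.42 and −1.39, and neuropeptide genes reach farthest right in RISDD against SDD, where Nppb is at 6.78.

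The genes whose pattern was most like each of the 10 were taken from genes with a mean of at least 100, by Pearson's r of log2(value + 1) over the 11 libraries, which share their group structure. Snap25 was most like Acsl3 and Zdhhc15 (both r = 0.99), Sv2b most like St8sia2 (0.99) and Mapre2 (0.98), and Scg2 most like Prdm15 and Lrrc10b (both 0.98). Syt1 was closest to Ing3 (0.98) and Lin54 (0.97), Vgf to Map3k1 and Helq (both 0.97), Syt4 to Strn and Ptchd1 (both 0.97) and Stx1a to Fchsd1 (0.96) and Eif4ebp1 (0.94). The lower-count granins had weaker neighbours: Plekhg1 (0.93) and Ly6c1 (0.92) for Chgb, N4bp2 and Cdc42bpa (both 0.91) for Scg3, and Zfp969 (0.90) and Thoc6 (0.85) for Chga.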

How the data were processed

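The authors deposited gene counts already divided by a constant of each library, a signal rather than raw counts. Per the submitters' processing notes, Trim Galore 0.6.10, Salmon 1.10.3 and GRCm39 were used; the scaling step is not given in the sources used. All values were whole multiples of 1 read (100% at a tolerance of 0.001), so reads could be recovered. The heading SDDIR B stood on 2 identical columns; 1 column was left unused, and whether the values are of replicate B or C cannot be settled. The other SDDIR sample was not analysed here.

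Genes that reached a value of 10 in 3 or more libraries were tested with limma 3.58.1 (R 4.3.3) on log2(value + 1), with trend and robust moderation and Benjamini-Hochberg adjustment over all tested genes. The code was tested on simulated data. The members and all lists were chosen with earlier results of these data known. Related genes are named by a rule: the 3 called genes of a list with the largest change and a mean reaching 100 in a group compared, of which the text prints some, plus a few genes named whatever their values, among them Rest, Vamp2, Syp, Sv2a, Sv2c, Snap23, Scg5, Pcsk1 and Cpe. Some genes that meet the rule are not reported here. Alternatives were scaling by upper quartile or by quantiles, a pseudocount of 0.5 or 10, no filter, a minimum of 50, no trend or robust moderation, a fit of 2 groups, a replicate block, edgeR 4.0.16 and DESeq2 1.42.0 on recovered reads, and each library left out.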

Additional observations from a re-analysis of the deposited data

How the results depend on the processing

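Of the values computed for the 10 genes under the alternatives, 788 stayed on the same side of the threshold, 38 lost a call, 39 gained one, and 0 called changes reversed. Among these, uncalled changes crossed 0 in some alternatives for Scg2 and Stx1a in SDD against NIL (reaching −0.11 and 0.06 without NIL C), and for Scg3 and Vgf in RISDD against SDDIR (reaching −1.45 and 0.09 without SDDIR A). The number of the 10 genes called in SDD against NIL was 5 in place of 3 with a pseudocount of 10 and with DESeq2, and 2 to 5 with a library left out. In SDDIR against SDD it was 5 in place of 3 in a fit of only those groups and 3 to 5 with a library left out. It ranged from 5 to 9 in RISDD against SDD and from 1 to 5 in RISDD against SDDIR, where a fit of only those groups gave 6. For related genes, a fit of only the groups compared gave 10 calls in place of 36 in SDD against NIL and 52 in place of 18 in RISDD against SDDIR, where DESeq2 gave 31. With a library left out the related counts were 14 to 49 in SDD against NIL, 25 to 77 in SDDIR against SDD, 55 to 102 in RISDD against SDD and 4 to 50 in RISDD against SDDIR. Over all genes these ranges were 1226 to 4114, 1673 to 6336, 4753 to 8972 and 308 to 4186, in the same order. Fits of only the groups compared gave 804 in place of 2498 in SDD against NIL, over all genes. In RISDD against SDDIR they gave 4888 in place of 1377, and DESeq2 gave 2258. In the comparisons that hold no NIL library, the median log2 change of the 10 genes was the same with and without NIL C. It was −0.41 in SDDIR against SDD, 0.57 in RISDD against SDD and 0.33 in RISDD against SDDIR. Because 1 fit of all groups shares its error, NIL C still enters the error of those comparisons. The cause of the other shifts was not tested. The labels do not say that a replicate letter marks a shared litter, batch or day. Correlations of deviations from group means were positive in all 15 same-letter pairs (0.00023 to 0.27), 9 of them over 0.1, and negative in 24 of 30 pairs of different letters. Deviations sum to 0 within a group, so the negative correlations are not separate evidence. SDDIR B was taken as letter B here, although it may be replicate C. SDDIR A correlated more with RISDD C (0.14) than with RISDD A. This hint from the data did not reach the requirement of every pair over 0.1, so the letters were not taken as pairs. A replicate block gave 5 calls in place of 3 among the 10 genes in SDD against NIL. A minimum value of 50 left some of the 10 untested. Depth limits Syt4, Chga and Scg3, which rest on few reads in many libraries.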

Other observations

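Regulators of neuronal and neuroendocrine gene expression, 18 tested genes on a list written with earlier results known, had 7 called higher and 0 lower in SDD against NIL, and 2 higher and 7 lower in RISDD against SDD. Over all tested genes 9.32% and 8.26%, and 20.0% and 22.6%, were called. St18, a zinc finger factor, had a mean of 125 in NIL and 516 in SDD, against 120.4 for SDDIR and 30.2 for RISDD. It was 4.01-fold higher in SDD than in NIL (limma adjusted p 0.0051) and 17.1-fold lower in RISDD than in SDD (limma adjusted p 9.4e-06). Insm1, a factor of neuroendocrine differentiation, was 2.89-fold higher in SDD than in NIL (limma adjusted p 0.0090). Rest, the repressor of many neuronal genes, had means of 977 in NIL and 802 in SDD, against 1055 for SDDIR and 1059.9 for RISDD. Its change of 0.39 in RISDD against SDD was called (limma adjusted p 0.039) but lost in 9 of 22 alternatives. Its change of 0.40 in SDDIR against SDD was not called (limma adjusted p 0.092), but was called in 3 alternatives: quantile scaling, a fit of only those groups and without NIL C (limma adjusted p down to 0.016). It was not called in the other 2 comparisons.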
